A study of Homo sapiens with 18 samples.

Results

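The genes described here are NFE2L2, which encodes the transcription factor NRF2, its inhibitor KEAP1, the glutathione genes GCLC, GCLM, GSS, GSR and GPX4, and the NRF2 targets NQO1, HMOX1 and SRXN1. These 10 genes were taken by name from the 33121 genes of the count table, and all of them had enough reads to be tested. RNA was sequenced from RPE-1, a human retinal pigment epithelial line immortalized with the telomerase gene hTERT. Transfection lasted 2 days and used siControl as the control siRNA, siMlx to target MLX or siMondoA to target MLXIP, which encodes MondoA. Cells were either left untreated or given doxorubicin (DXR), an anthracycline that damages DNA, at 150 ng/ml for 3 days. This gives 6 groups of 3 libraries, all from 1 cell line and all transfected with an siRNA. Untreated libraries are tagged D0 in their names and DXR libraries D5. The labels do not explain these tags, so DXR and a different harvest day cannot be told apart. Below, a rise or fall with DXR is a difference between DXR and untreated libraries and may include one of harvest day.

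NRF2 is held at a low level by KEAP1, an adaptor that brings it to a CUL3 ubiquitin ligase. Oxidants and electrophiles modify KEAP1, NRF2 is spared, and it binds antioxidant response elements together with small MAF proteins. Its targets include both subunits of glutamate-cysteine ligase, the enzyme that starts glutathione synthesis. Others are enzymes that remove quinones and haem or restore over-oxidised peroxiredoxin. Much of this control acts on NRF2 protein, which RNA sequencing does not measure. MondoA is a nutrient-sensing transcription factor that binds E-box elements as a dimer with MLX.

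Libraries held 15503423 to 29219280 counts. Levels are given in CPM, counts scaled to library size with TMM, as mean ± SD of 3 libraries. Nothing in the labels says that the libraries of a group are separate cultures, so p-values measure the spread between these libraries, which may be technical. The targeted RNAs were low under their labels. MLXIP was 5.70% of its siControl level in untreated siMondoA cells, and MLX was 26.7% of its siControl level in untreated siMlx cells. With DXR these levels were 3.67% for MLXIP and 20.8% for MLX. Both were lower than in untreated cells in edgeR's interaction test, described below (log2 -0.63, adjusted p = 0.0469 for MLXIP, and -0.36, adjusted p = 0.0360 for MLX). MLX was also higher in siMondoA than in siControl cells, by 0.91 on the log2 scale untreated (SE 0.06, adjusted p = 5.26e-10) and by 0.72 with DXR (SE 0.06, adjusted p = 5.72e-08), so the siRNAs moved MLX in opposite directions. Of the retinal pigment epithelium markers, RPE65, RLBP1, TYR, DCT, PMEL, TTR and LRAT had at most 13 counts in any library, whereas MITF had 311 to 960, OTX2 198 to 620 and KRT8 4185 to 15275. The summed level of the 15 epithelial markers, led by KRT8 and KRT18, was 555 to 742 CPM in untreated siControl, 363 to 456 in untreated siMlx and 629 to 845 in untreated siMondoA libraries. With DXR it was 1165 to 1223, 976 to 1055 and 1316 to 1394 CPM. The 12 fibroblast markers, led by THY1, COL1A1 and FAP, summed to 534 to 614 CPM in siControl, 509 to 647 in siMlx and 472 to 535 in siMondoA libraries when untreated. With DXR they summed to 858 to 962, 941 to 1111 and 762 to 834 CPM. Of these 12, COL1A2, COL3A1, LUM and DPT had at most 21 counts in any library and S100A4 at most 52. DCN had 8 to 234 counts, whereas THY1 had 2908 to 10374, COL1A1 1814 to 6263 and FAP 1307 to 3152. The 13 blood and endothelial markers summed to 68.0 to 147 CPM over all libraries, led by CD68, and HBB was at 0 throughout. Epithelial and fibroblast sums were higher with DXR. The epithelial sum mostly follows KRT8 (218 to 773 CPM) and KRT18 (106 to 574 CPM), whereas MITF had at most 35.1 and OTX2 at most 25.0 CPM. OTX2 went with GSR over the libraries (r = 0.97), a gene that was lower with DXR, so the sum does not stand for OTX2. The epithelial sum was also lower in siMlx libraries in both conditions, and under DXR siMondoA libraries had higher epithelial and lower fibroblast sums than siControl libraries, without overlap. The part of these markers in the results was not tested. In bulk RNA, fewer cells with a transcript and less of it per cell cannot be told apart.

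Compared per gene length, in RPKM (reads scaled to gene length and depth), NQO1 and GPX4 were far above the other genes. Untreated siControl cells had 248 ± 5.4 RPKM of NQO1 and 188 ± 5.0 of GPX4. SRXN1 followed at 43.1 ± 4.1, NFE2L2 at 31.5 ± 0.57 and GSR at 28.4 ± 2.4 RPKM. KEAP1 stood at 25.7 ± 1.7, GSS at 16.9 ± 1.2 and GCLM at 13.7 ± 1.2 RPKM. The lowest were HMOX1 at 8.37 ± 1.3 and GCLC, the catalytic subunit of glutamate-cysteine ligase, at 6.59 ± 0.33 RPKM. HMOX1 also rested on the fewest reads, 124 to 421 counts a library, against 4621 to 18748 for NQO1.

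**Figure D1:**
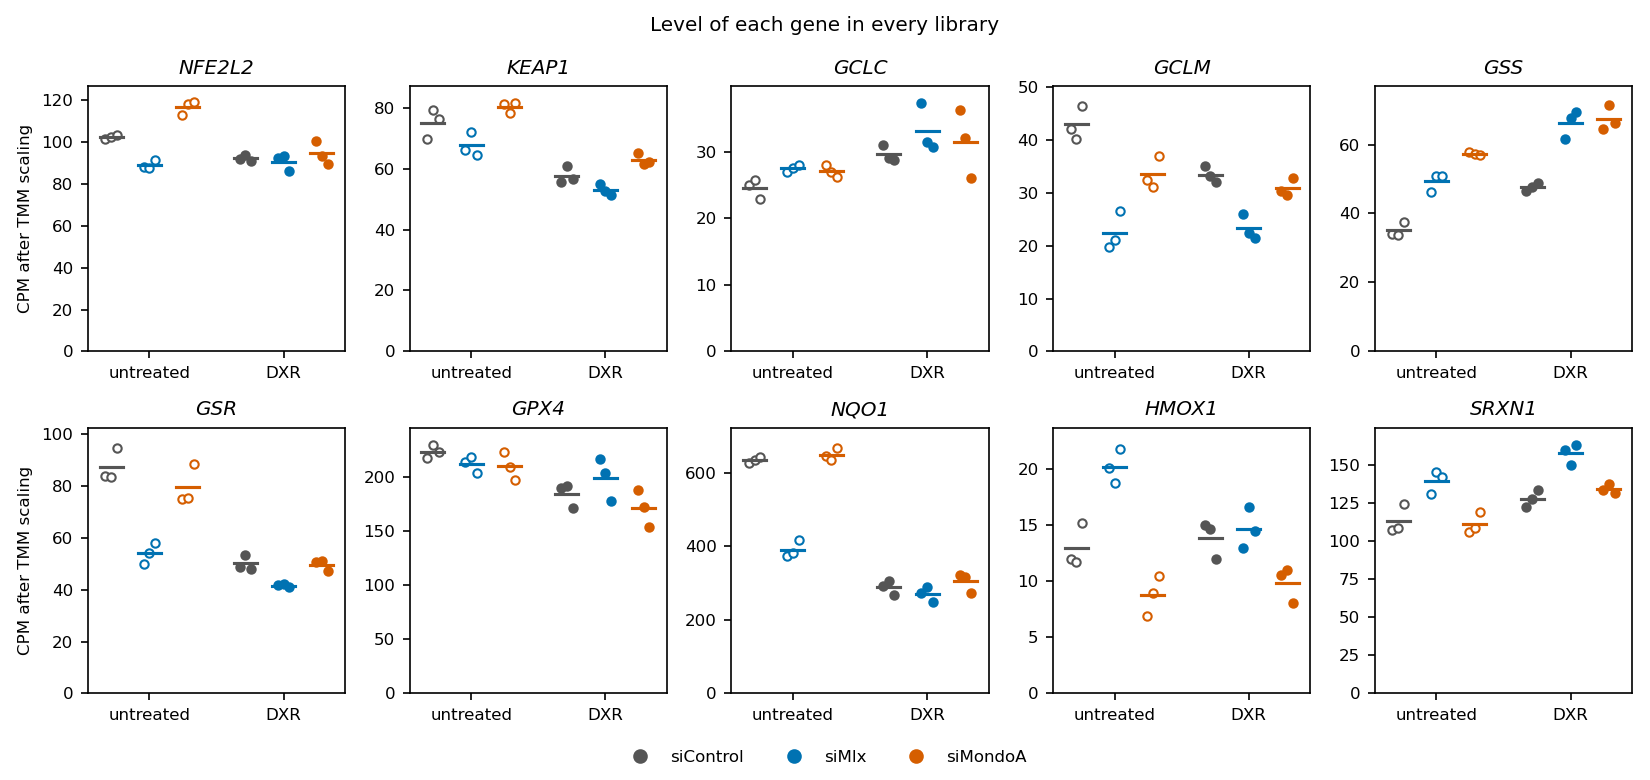
Level of each of the 10 genes in every library, in CPM after TMM scaling on axes that start at 0; open points are untreated and filled points DXR libraries, colours give the siRNA, and bars are the means of 3 libraries. NQO1 and GSR are low in the untreated siMlx libraries and in all DXR libraries, whereas HMOX1 is highest in untreated siMlx and lowest in siMondoA libraries.

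Each knockdown, and DXR, raised some of the 10 genes and lowered others. Changes are fitted log2 fold changes from edgeR's two-sided quasi-likelihood test, adjusted over 13676 genes and called at an adjusted p under 0.05. In untreated cells, siMondoA raised 2 of the 10 genes, NFE2L2 and GSS, and lowered 2, GCLM and HMOX1. Of all genes tested, 23.3% were called higher and 23.3% lower in that comparison. The median change of the 10 genes was 0.00 on the log2 scale, against 0.02 over all genes. Untreated siMlx cells had 3 of the 10 genes higher (GSS, HMOX1 and SRXN1), with 24.9% of all genes called higher. They had 5 lower (NFE2L2, KEAP1, GCLM, GSR and NQO1), with 23% of all genes called lower. The median of the 10 was -0.11, against 0.02 over all genes. With upper-quartile scaling the shares of all genes were 27.9% higher and 20.6% lower for siMondoA, and 28.6% and 20.7% for siMlx.

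DXR moved most of the genes in siControl cells. It raised 3 (GCLC, GSS and SRXN1; 28.1% of all genes higher) and lowered 6 (NFE2L2, KEAP1, GCLM, GSR, GPX4 and NQO1; 28.6% of all genes lower), with a median of -0.22 against -0.01 over all genes. DXR in siMondoA cells raised 2 of the 10, where 26.2% of all genes were called higher, and lowered 5, where 28% were called lower. After siMlx, DXR raised 3 (30.9% of all genes higher) and lowered 4 (31.2% lower). The share of calls that were higher was 49.5% in siControl, 48.4% in siMondoA and 49.8% in siMlx cells, and 46.4% to 52.3% with upper-quartile or RLE scaling. With limma on the RPKM values, which differ in test, filter and scaling, it was 35.7%, 32.3% and 35.3%, and the median of all genes was -0.11, -0.14 and -0.15. No change of the 10 genes that passed the test turned its direction under any alternative run.

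The same siRNA comparisons were made in DXR-treated cells, where fewer of all genes were called too. There siMondoA left 1 gene higher, GSS, against 10.9% of all genes, and 1 lower, HMOX1, against 13.9%. The siMlx libraries had 2 higher (GSS and SRXN1; 14% of all genes) and 2 lower (GCLM and GSR; 16.2% of all genes). With upper-quartile scaling the siMlx shares of all genes were 18.3% higher and 14.3% lower. These comparisons use the same siControl libraries for both siRNAs, and the untreated pair does likewise.

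**Figure D2:**
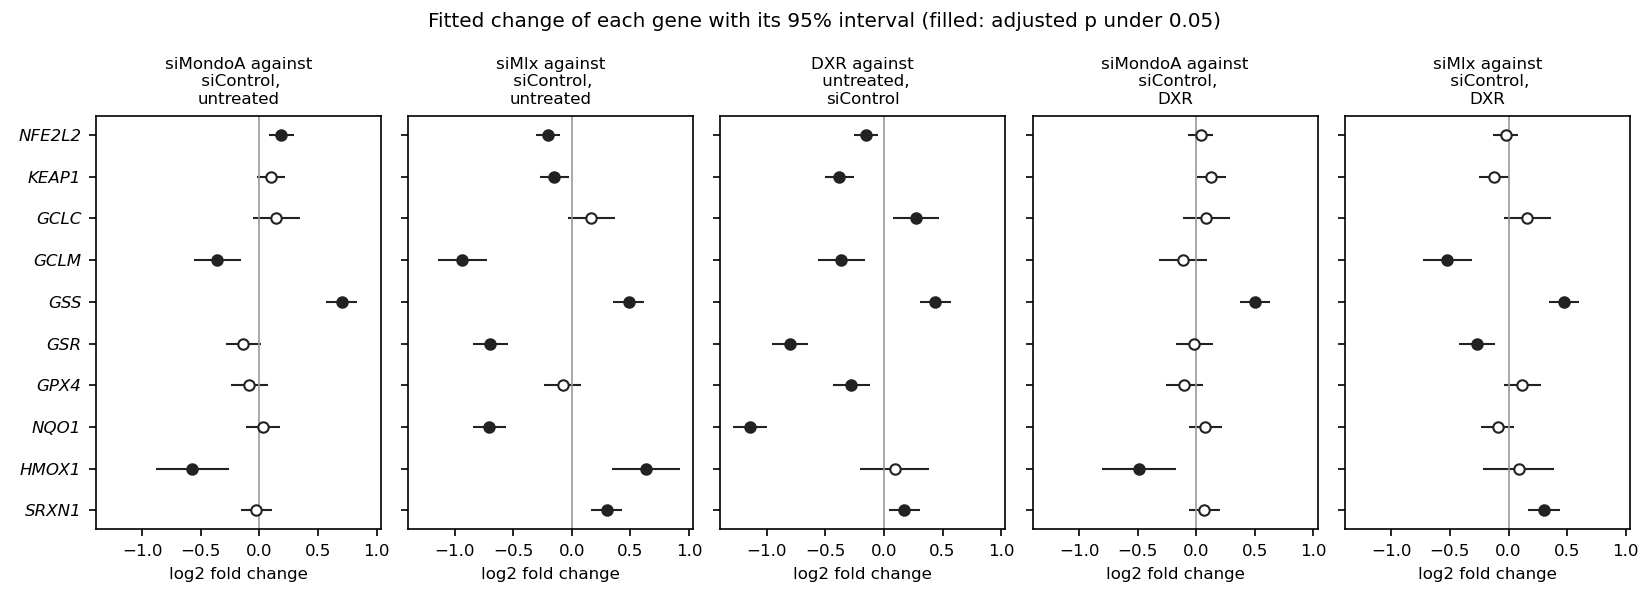
Fitted log2 fold change of each gene (points) with its 95% interval (lines) in 5 comparisons; filled points passed an adjusted p under 0.05. GSS lies above 0 in all 5 panels, and NQO1 lies furthest below 0 in the DXR panel at -1.14.

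NFE2L2, on chromosome 2 of GRCh38 from 177227595 to 177392697 on the minus strand, changed by small amounts. Untreated siControl libraries had 102, 102 and 103 CPM, siMlx libraries 88.0, 87.7 and 91.6, and siMondoA libraries 113, 118 and 119. The 3 untreated groups did not overlap, with siMondoA highest and siMlx lowest. NFE2L2 rose with siMondoA by 0.19 (SE 0.05, adjusted p = 0.00412) and fell by 0.20 on the log2 scale with siMlx (SE 0.05, adjusted p = 0.00234). With no low-count filter the siMondoA rise missed the threshold (adjusted p = 0.0567). The DXR groups, at 92.2 ± 1.4 CPM (siControl), 90.7 ± 3.9 (siMlx) and 94.6 ± 5.6 (siMondoA), overlapped each other and untreated siMlx. DXR lowered NFE2L2 in siControl (-0.15, adjusted p = 0.0134) and siMondoA cells (-0.30, adjusted p = 4.39e-05). In siMlx cells the DXR difference was 0.03 (95% interval -0.08 to 0.13), and -0.11 in the RPKM values, without passing. Neither siRNA's DXR response differed from that of siControl past the test (adjusted p = 0.111 for siMlx and 0.194 for siMondoA). NFE2L2 shares 1054 exon bases with AC019080.1 on the same strand. On the opposite strand it shares 190 with AC079305.1 and 54 with AGPS. The strand setting of the counts is not given in the sources used here, so reads from these genes may not have been told apart.

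KEAP1, on chromosome 19 from 10486120 to 10503741 on the minus strand, fell with DXR after each siRNA. Its untreated siControl libraries had 69.6, 79.3 and 76.4 CPM, and its DXR siControl libraries 55.6, 60.9 and 56.5. No DXR library reached the untreated level of the same siRNA. The falls were -0.38 in siControl (adjusted p = 1.74e-05), -0.35 in siMlx (adjusted p = 3.77e-05) and -0.35 in siMondoA cells (adjusted p = 5.90e-05). The intervals of the differences between these responses were -0.15 to 0.20 for siMlx and -0.14 to 0.21 for siMondoA. The untreated siMlx libraries, at 66.2, 72.05 and 64.6 CPM, overlapped the siControl ones, and the call of -0.15 (adjusted p = 0.0414) was lost in 9 alternatives, with adjusted p from 0.0696 to 0.174, among them the leaving out of siControl library 2 or 3 or siMlx library 1 or 3.

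GCLM encodes the modifier subunit of glutamate-cysteine ligase, a standard NRF2 target, and lies on chromosome 1 from 93885205 to 93909456 on the minus strand. Promoter windows from RefSeq (GRCh38.p14, from 250 bases before to 50 after the start) were held for 7 of the 10 genes, all but GSS, GSR and HMOX1. They were searched on both strands for the antioxidant response element core TGACNNNGC and the E-box CACGTG. GCLM and 1 of the KEAP1 windows held the core, in both genes as the same 9 letters in reverse orientation. These are shown because GCLM had the largest fall of the 10 genes with siMlx in untreated cells and KEAP1 encodes the pathway's inhibitor. Each is written 5′ to 3′ on the gene's strand, with the match in capitals. The GCLM stretch is chr1:93909431-93909530, the 100 bases before the RefSeq start, and the KEAP1 stretch is chr19:10502784-10502812.
GCLM: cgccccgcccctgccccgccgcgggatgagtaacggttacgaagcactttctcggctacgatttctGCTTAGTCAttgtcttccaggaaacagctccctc
KEAP1: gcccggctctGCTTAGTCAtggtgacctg
The match starts 34 bases before the RefSeq start in GCLM and 31 bases before it in KEAP1. That KEAP1 window held another match on the gene's own strand, starting 54 bases before the start. No match to the core was in the windows of NFE2L2, GCLC, GPX4, NQO1 and SRXN1. No E-box of these letters was in the windows of any of the 7 genes. In GENCODE 29, the 100 bases before the RefSeq start are all exon for KEAP1, NQO1 and SRXN1, as are the 29 KEAP1 bases shown. The same holds for some, but not all, windows of NFE2L2 and GPX4. Such windows lie inside an annotated transcript. Bases further than 250 before the RefSeq start were not searched, so no match here does not mean that a gene lacks the element. Over all 35116 windows, 13.3% held the core and 7.26% the E-box. Counted by gene, 16.1% of 27305 genes had a window with the core and 8.77% one with the E-box. A match is a description of the letters and not a site of binding.

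GCLM was lowered by both siRNAs in untreated cells. The siControl libraries had 42.1, 40.2 and 46.5 CPM, the siMondoA libraries 32.4, 31.2 and 37.1, and the siMlx libraries 19.7, 21.1 and 26.6. The 3 groups did not overlap, and siMlx was the lowest. GCLM fell to 52.3% of siControl with siMlx (log2 -0.93, SE 0.10, adjusted p = 2.14e-07) and to 77.9% with siMondoA (-0.36, SE 0.10, adjusted p = 0.00448). With DXR the siControl libraries had 35.1, 33.2 and 32.0 CPM, the siMlx libraries 26.0, 22.4 and 21.4, and the siMondoA libraries 30.3, 29.5 and 32.9. The siMlx libraries were again the lowest, and siControl and siMondoA overlapped. GCLM fell with siMlx by 0.52 on the log2 scale under DXR (SE 0.10, adjusted p = 0.000561), whereas the siMondoA difference was -0.11 (95% interval -0.32 to 0.09, adjusted p = 0.449). DXR lowered GCLM in siControl cells (-0.36, SE 0.10, adjusted p = 0.00325). Its changes after siMlx, 0.05 (-0.07 in the RPKM values), and after siMondoA, -0.12, did not pass.

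GCLC, on chromosome 6 from 53497341 to 53616970 on the minus strand, had a pattern unlike that of GCLM, its partner subunit (r = -0.46 over the libraries). Its siControl libraries had 25.0, 25.7 and 22.9 CPM untreated and 31.0, 28.98 and 28.7 with DXR, with no overlap. GCLC rose with DXR by 0.27 in siControl (SE 0.09, adjusted p = 0.0189) and by 0.27 in siMlx cells (SE 0.10, adjusted p = 0.0204). Both calls were lost in the RPKM values and on leaving out a library (siControl untreated 3 or DXR 1, siMlx untreated 1 or DXR 1), with adjusted p from 0.0578 to 0.258. The siMondoA DXR libraries, at 36.2, 32.0 and 26.0 CPM, were the most spread, and the rise of 0.22 there missed the threshold (adjusted p = 0.0632), passing with 0.33 when the library at 26.0 was left out (adjusted p = 0.00360). Neither siRNA passed against siControl in either condition, with differences of 0.09 to 0.17. The exons of GCLC share 529 bases with AL033397.1 on the same strand.

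GSS, glutathione synthetase, which adds glycine in the last step of synthesis, rose in all 5 main comparisons. It lies on chromosome 20 from 34928433 to 34956027 on the minus strand. Untreated siControl libraries had 34.2, 33.8 and 37.5 CPM, siMlx libraries 46.1, 50.8 and 51.0, and siMondoA libraries 57.8, 57.2 and 56.9. The control libraries were the lowest and the siMondoA libraries the highest, with no overlap among the 3 groups. GSS rose by 0.70 with siMondoA (SE 0.06, adjusted p = 1.96e-08) and by 0.49 with siMlx (SE 0.06, adjusted p = 2.58e-06). With DXR, siControl libraries had 46.6, 47.7 and 48.9 CPM, siMlx libraries 61.6, 67.8 and 69.6, and siMondoA libraries 64.5, 71.4 and 66.1. Both knockdowns were above siControl there and overlapped each other. The rises were 0.50 with siMondoA (adjusted p = 5.70e-06) and 0.48 with siMlx (adjusted p = 6.56e-06). GSS was also higher with DXR than untreated, by 0.44 in siControl (adjusted p = 6.81e-06), 0.43 in siMlx (adjusted p = 5.69e-06) and 0.23 in siMondoA cells (adjusted p = 0.00315). The last of these did not pass in the RPKM values (0.12, adjusted p = 0.126).

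GSR, on chromosome 8, encodes glutathione reductase, which returns oxidised glutathione to its reduced form with NADPH. Untreated siControl libraries had 84.0, 83.6 and 94.8 CPM, siMondoA libraries 74.9, 75.5 and 88.4, and siMlx libraries 49.96, 54.1 and 58.0. The siMlx libraries stood apart below the others, which overlapped. GSR fell with siMlx to 61.7% of siControl (log2 -0.70, SE 0.07, adjusted p = 1.48e-07), and the siMondoA difference was -0.14 (95% interval -0.29 to 0.01, adjusted p = 0.118). That difference passed at -0.22 when siMondoA library 3 was left out (adjusted p = 0.0175). With DXR, the siControl libraries had 48.9, 53.4 and 48.1 CPM, siMondoA libraries 50.6, 51.0 and 47.1, and siMlx libraries 41.6, 42.1 and 41.0. DXR lowered GSR in siControl (-0.80, SE 0.07, adjusted p = 2.01e-08), and also in siMondoA (-0.68, adjusted p = 2.50e-07) and siMlx cells (-0.38, adjusted p = 0.000213). The siMlx libraries stayed the lowest under DXR (-0.27, SE 0.08, adjusted p = 0.00968), a call that was lost without siControl DXR library 2 (adjusted p = 0.0515).

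GPX4, the glutathione peroxidase that reduces lipid peroxides in membranes, lies on chromosome 19 from 1103926 to 1106791 on the plus strand. It passed for neither siRNA against siControl in either condition. Untreated libraries had 218, 230 and 224 CPM (siControl), 214, 218 and 204 (siMlx) and 224, 210 and 198 (siMondoA). The 3 groups overlapped. DXR libraries had 190, 192 and 171 CPM (siControl), 217, 204 and 178 (siMlx) and 188, 172 and 154 (siMondoA). All siControl and siMondoA DXR libraries were below their untreated libraries, whereas siMlx libraries overlapped. GPX4 fell with DXR in siControl (-0.28, adjusted p = 0.00372) and siMondoA cells (-0.30, adjusted p = 0.00272). In siMlx cells the difference was -0.09 (95% interval -0.24 to 0.07), and -0.23 in the RPKM values, where it passed (adjusted p = 0.0189).

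NQO1, the quinone reductase used most widely as a readout of NRF2, gave the largest response to DXR of the 10. It lies on chromosome 16 from 69706996 to 69726951 on the minus strand. Untreated siControl libraries had 627, 636 and 644 CPM, siMondoA libraries 646, 634 and 666, and siMlx libraries 372, 382 and 417. siControl and siMondoA overlapped, and siMlx lay well below both. NQO1 fell with siMlx to 61.4% of siControl (log2 -0.70, SE 0.07, adjusted p = 6.20e-08), while the siMondoA difference was 0.03 (95% interval -0.11 to 0.17). With DXR the libraries had 292, 306 and 267 CPM (siControl), 272, 289 and 250 (siMlx) and 321, 318 and 274 (siMondoA). All DXR libraries were below every untreated library, and the 3 DXR groups overlapped. DXR lowered NQO1 to 45.4% of the untreated level in siControl (-1.14, SE 0.07, adjusted p = 1.23e-10), to 46.9% in siMondoA (-1.09, SE 0.07, adjusted p = 2.42e-10) and to 69.2% in siMlx cells (-0.53, SE 0.07, adjusted p = 1.50e-06). Under DXR the siMlx difference from siControl was -0.09 (95% interval -0.24 to 0.05, adjusted p = 0.333). The exons of NQO1 share 575 bases with AC092115.2 on the opposite strand.

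HMOX1, haem oxygenase 1, which breaks haem down to iron, biliverdin and carbon monoxide, rose with siMlx and fell with siMondoA. It lies on chromosome 22 from 35380361 to 35394214 on the plus strand. Untreated siControl libraries had 12.0, 11.7 and 15.2 CPM, siMlx libraries 20.0, 18.7 and 21.8, and siMondoA libraries 6.90, 8.90 and 10.5. No library of 1 untreated group fell within another. HMOX1 rose with siMlx by 0.63 (SE 0.14, adjusted p = 0.000836) and fell by 0.57 on the log2 scale with siMondoA (SE 0.15, adjusted p = 0.00368). With DXR, siControl libraries had 14.98, 14.6 and 12.0 CPM, siMlx libraries 13.0, 16.6 and 14.4, and siMondoA libraries 10.5, 10.99 and 8.04. siControl and siMlx overlapped and siMondoA lay below both. The siMondoA fall under DXR (-0.49, SE 0.15, adjusted p = 0.0211) was lost without siControl DXR library 1 or 2 or siMondoA DXR library 3, with adjusted p of 0.0803, 0.0697 and 0.113. DXR lowered HMOX1 in siMlx cells (-0.46, SE 0.14, adjusted p = 0.00810; 0.0581 without siMlx DXR library 1), and its change in siControl cells was 0.09 (95% interval -0.21 to 0.39).

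SRXN1, sulfiredoxin, which restores over-oxidised peroxiredoxins, lies on chromosome 20 from 646615 to 653370 on the minus strand and was higher after siMlx than after either of the other siRNAs. Untreated libraries had 107, 108 and 125 CPM (siControl), 131, 145 and 142 (siMlx) and 106, 108 and 119 (siMondoA). DXR libraries had 123, 128 and 133 CPM (siControl), 160, 150 and 163 (siMlx) and 133, 137 and 132 (siMondoA). In each condition all siMlx libraries were above the others. SRXN1 rose with siMlx by 0.30 untreated (SE 0.06, adjusted p = 0.000707) and by 0.30 with DXR (SE 0.06, adjusted p = 0.00120), while the siMondoA differences, -0.03 and 0.07, did not pass, and the first was positive with upper-quartile scaling (0.02). DXR raised it by 0.17 in siControl (adjusted p = 0.0270), 0.18 in siMlx (adjusted p = 0.0210) and 0.27 in siMondoA cells (adjusted p = 0.00156). None of these 3 rises passed in the RPKM values, where adjusted p was 0.0579 to 0.587, and the siControl and siMlx rises were also lost with no low-count filter (0.107 and 0.0507). Leaving out siControl untreated library 1 or 2 or DXR library 2 or 3 ended the siControl call, and leaving out siMlx untreated library 1 or DXR library 3 ended the siMlx call. The exons of SRXN1 share 2292 bases with AL121758.1 on the same strand, so reads from the 2 may not have been told apart.

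The siRNAs were compared directly to test where they differed. In untreated cells siMondoA was above siMlx for 6 of the 10 genes (28.5% of all genes), which were NFE2L2, KEAP1, GCLM, GSS, GSR and NQO1. It was below siMlx for 2, HMOX1 and SRXN1 (30.4% of all genes). HMOX1 had the largest difference, -1.21 (SE 0.15, adjusted p = 7.50e-07), followed by NQO1 at 0.73 (SE 0.07, adjusted p = 1.92e-08), GCLM at 0.57 (SE 0.10, adjusted p = 6.78e-05) and GSR at 0.56 (SE 0.07, adjusted p = 1.75e-06). Under DXR siMondoA was above siMlx for 3 genes (18.9% of all genes), namely KEAP1, GCLM and GSR, by 0.25 to 0.41. It was below for 3 (20% of all genes): HMOX1 at -0.58 (adjusted p = 0.00460), SRXN1 at -0.23 (adjusted p = 0.00656) and GPX4 at -0.22 (adjusted p = 0.0269). The GPX4 libraries overlapped, and its call was lost in 7 alternatives, including without siMlx library 1 or 2 or siMondoA library 2 or 3. NQO1 no longer passed between the siRNAs under DXR (0.17, adjusted p = 0.0550), though it did in 5 alternatives (adjusted p 0.00969 to 0.0484), 2 of which left out siMlx library 2 or siMondoA library 3.

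An interaction is the siRNA's log2 change under DXR minus its change in untreated cells. It tests whether an siRNA's effect differed between DXR and untreated libraries, and may include a difference of harvest day. For siMlx, 2 of the 10 genes had a positive interaction, NQO1 and GSR, where 6.43% of all genes did, and 0 a negative one, where 5.81% did. NQO1 had an interaction of 0.61 (SE 0.10, 95% interval 0.41 to 0.81, adjusted p = 0.000323) and GSR of 0.43 (SE 0.10, 95% interval 0.21 to 0.64, adjusted p = 0.0106). For both, the siMlx libraries started below siControl and fell less with DXR. MLX itself, the target of siMlx, had an interaction of -0.36 (adjusted p = 0.0360), and its part in these 2 results was not tested. GCLM at 0.41 (adjusted p = 0.0641) and HMOX1 at -0.55 (adjusted p = 0.0796) missed the threshold. For siMondoA, 0 of the 10 genes passed in either direction, where 5.84% of all genes were called positive and 4.28% negative. GSS and NFE2L2 had an unadjusted p under 0.05, and neither DESeq2 nor limma called any of the 10. The share of calls that were positive was 57.7% for siMondoA and 45.4% with upper-quartile scaling. For siMlx it was 52.5%, 52.4% with upper-quartile and 56.8% with RLE scaling, and 40.4% with limma on the RPKM values, a fit that also differs in test and filter.

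**Figure D3:**
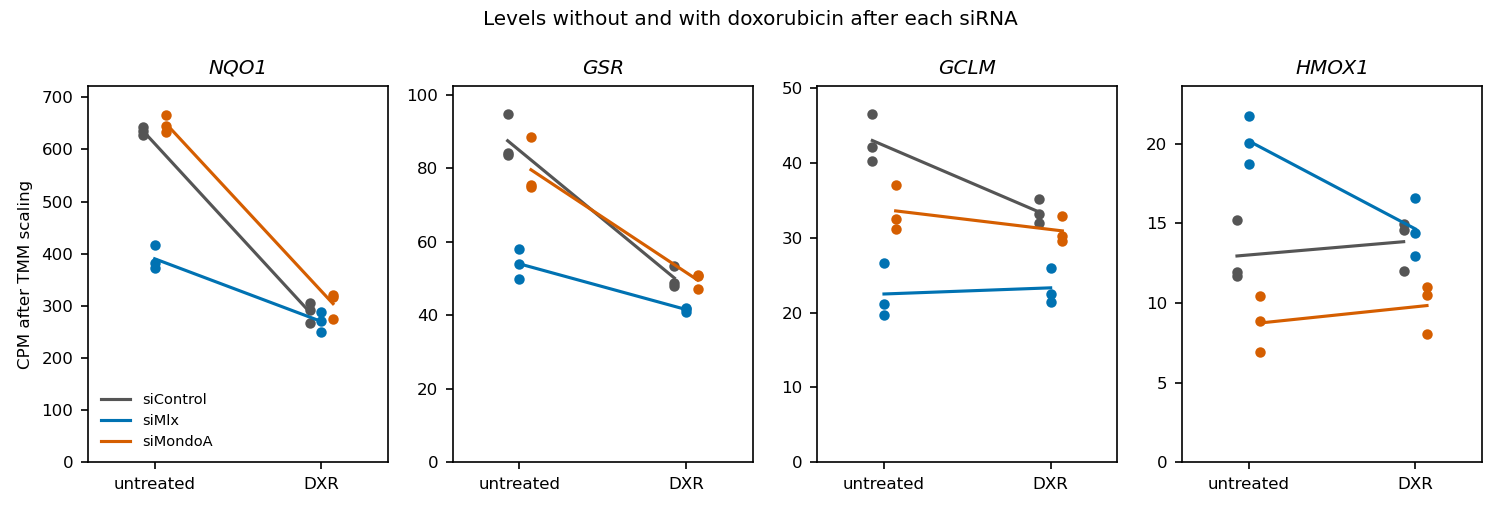
Levels of NQO1, GSR, GCLM and HMOX1 without and with DXR, in CPM after TMM scaling; points are libraries, lines join the means of 3 libraries, and colours give the siRNA. The siMlx lines of NQO1 and GSR start below the other lines and fall less, from 390 to 270 CPM for NQO1 against 636 to 288 in siControl.

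Across the 18 libraries the 10 genes did not form a single pattern. The correlations are Pearson's r of log2 CPM and describe libraries that share 6 group means. NQO1 and GSR were most alike (r = 0.96), and KEAP1 was close to both (0.92 with NQO1 and 0.89 with GSR). NFE2L2 had 0.82 with NQO1. GSS, GCLC and SRXN1 went with each other (0.56 to 0.63) and against GSR (-0.62, -0.73 and -0.80). HMOX1 had 0.51 with SRXN1 and -0.60 with NFE2L2. Among genes with a mean of at least 5 CPM, those most like NQO1 were SIX3 (0.98), RPS6KA3 (0.98) and SYNJ2 (0.97), and those most like GSR were SIX3 (0.98), OTX2 (0.97) and ACAT1 (0.97). OTX2 is on the list of epithelial markers above. GSS was most like HECA, PRDX1 and MLF2 (0.95 to 0.96), GCLM most like ANAPC10, NUDT21 and SKA2 (0.95 to 0.96), and HMOX1 most like TMEM126B, IRF2BP2 and SDC1 (0.92 to 0.94). NFE2L2 was most like SMARCC1, LGALS3 and RARA, KEAP1 most like CCDC97, PSMD6 and UPP1, and SRXN1 most like CCM2, EEF1D and CENPT. The lowest likeness was for GCLC, with MPZL1, COMMD6 and CHST15 at 0.88 to 0.90, and for GPX4, with H3F3A, THBD and ELFN2 at 0.89 to 0.92.

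**Figure D4:**
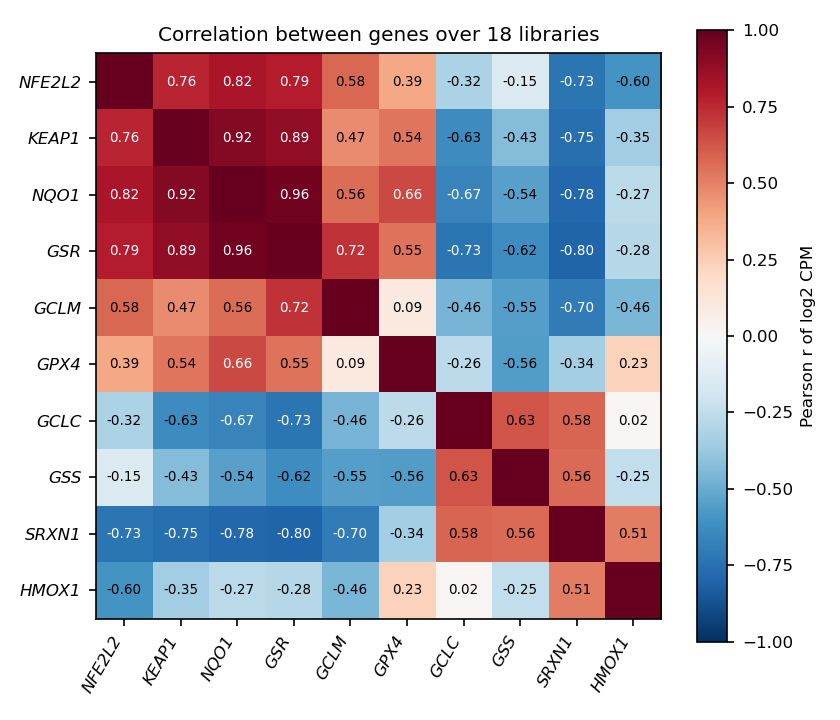
Pearson's r of log2 CPM between each pair of the 10 genes over 18 libraries, on a colour scale from -1 to 1 with the value printed in each square. NQO1, GSR, KEAP1 and NFE2L2 form a block of positive values from 0.76 to 0.96.

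The other genes of the pathway were read from 4 lists, and the shares of all genes called are those given above for each comparison. Genes such as SLC7A11 that are on more than 1 list count in each. Among 17 tested genes that control NRF2 protein or its DNA binding, siMondoA in untreated cells raised 7 (41.2%, against 23.3% of all genes) and lowered 2 (11.8%, against 23.3%), with a median change of 0.09 against 0.02 over all genes. Untreated siMlx cells had 5 higher (29.4%, against 24.9%) and 8 lower (47.1%, against 23%), with a median of -0.19 against 0.02. MAFG, a small MAF partner of NRF2, rose with both siRNAs (0.88 with siMondoA, adjusted p = 1.86e-09, and 0.82 with siMlx, adjusted p = 3.64e-09). MAFF, another small MAF, rose by 0.57 with siMondoA (adjusted p = 8.96e-05) and fell with siMlx (-1.10, adjusted p = 9.04e-08). BTRC, a ubiquitin ligase receptor that takes NRF2 marked by the kinase GSK3B, fell with both (-0.49 with siMondoA, adjusted p = 8.33e-07, and -0.49 with siMlx, adjusted p = 7.35e-07). GSK3B fell with siMlx (-0.50, adjusted p = 2.45e-07) and was at -0.01 with siMondoA (adjusted p = 0.864). BACH1, a repressor at antioxidant response elements, rose with both (0.33, adjusted p = 0.000527, and 0.44, adjusted p = 2.41e-05).

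DXR in siControl cells raised 5 of these 17 genes (29.4%, against 28.1% of all genes) and lowered 3 (17.6%, against 28.6%). NFE2L3, a relative of NRF2, rose by 1.61 (adjusted p = 4.44e-09) and MAFK by 0.71 (adjusted p = 4.45e-05), and CUL3, the scaffold of the KEAP1 ligase, fell (-0.37, adjusted p = 2.02e-05). Under DXR each siRNA had 3 higher (17.6%, against 10.9% of all genes for siMondoA and 14% for siMlx) and 2 lower (11.8%, against 13.9% and 16.2%). MAFG rose with both there (0.57 with siMondoA, adjusted p = 2.51e-06, and 0.84 with siMlx, adjusted p = 8.34e-09), as did BACH1 (0.22, adjusted p = 0.0216, and 0.46, adjusted p = 3.08e-05). GSK3B fell with both (-0.18, adjusted p = 0.0159, and -0.31, adjusted p = 0.000176). MAFF rose with siMondoA (0.34, adjusted p = 0.0197) and fell with siMlx (-0.65, adjusted p = 0.000138). BTRC fell with siMondoA (-0.38, adjusted p = 5.51e-05) and was at -0.03 with siMlx (adjusted p = 0.762).

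Of 34 other NRF2 targets, 13 rose (38.2%, against 23.3% of all genes) and 6 fell (17.6%, against 23.3%) with siMondoA in untreated cells, with a median of 0.11 against 0.02 over all genes. With siMlx 8 rose (23.5%, against 24.9%) and 13 fell (38.2%, against 23%), with a median of -0.12 against 0.02. SLC7A11, the cystine carrier that supplies glutathione synthesis, went from 65.8 ± 11 to 191 ± 40 CPM with siMondoA (log2 1.53, SE 0.15, adjusted p = 7.01e-08) and rose by 0.58 with siMlx (adjusted p = 0.00304). The pentose phosphate enzyme PGD rose with both (0.80, adjusted p = 1.59e-09, and 0.57, adjusted p = 1.46e-07), while TKT of the same pathway rose with siMondoA (0.51, adjusted p = 6.29e-07) and was at -0.10 with siMlx (adjusted p = 0.148). FTH1, the ferritin heavy chain, fell with siMlx from 2004 ± 53 to 922 ± 46 CPM (-1.12, SE 0.07, adjusted p = 1.92e-10) and was at -0.08 with siMondoA (adjusted p = 0.408). The conjugate exporter ABCC3 fell with siMlx (-1.37, adjusted p = 1.90e-09) and siMondoA (-0.28, adjusted p = 0.0233), as did TRIM16L (-1.03, adjusted p = 1.05e-07, and -0.53, adjusted p = 0.000237).

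DXR in siControl cells raised 4 of the 34 targets (11.8%, against 28.1% of all genes) and lowered 13 (38.2%, against 28.6%), with a median of -0.14 against -0.01 over all genes. Thioredoxin (TXN; -0.51, adjusted p = 2.23e-07) and PIR (-1.36, adjusted p = 3.41e-07) fell, while the haem carrier SLC48A1 rose by 0.84 (adjusted p = 1.54e-07). PIR fell from a low level, 5.85 ± 0.69 to 2.26 ± 0.30 CPM. Under DXR, siMondoA raised 8 (23.5%, against 10.9% of all genes) and lowered 1 (2.94%, against 13.9%), and siMlx raised 9 (26.5%, against 14%) and lowered 5 (14.7%, against 16.2%). SLC7A11 rose with siMondoA and siMlx there (1.35, adjusted p = 1.66e-06, and 0.93, adjusted p = 9.11e-05), as did PGD (0.61, adjusted p = 2.98e-07, and 0.53, adjusted p = 1.07e-06). NAMPT, of NAD salvage, rose with siMondoA (0.43, adjusted p = 0.000297) and fell with siMlx (-0.78, adjusted p = 3.69e-07), and it had passed in the same directions in untreated cells (0.20, adjusted p = 0.0393, and -0.43, adjusted p = 0.000108).

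Among 38 genes of glutathione use and turnover, siMondoA in untreated cells raised 10 (26.3%, against 23.3% of all genes) and lowered 5 (13.2%, against 23.3%), with a median of 0.06 against 0.02. There siMlx raised 10 (26.3%, against 24.9%) and lowered 11 (28.9%, against 23%), with a median of 0.00 against 0.02, so its shares were close to those of all genes. GLO1, which uses glutathione to clear methylglyoxal, fell with siMondoA (-0.82, adjusted p = 1.07e-08) and was at 0.03 with siMlx (adjusted p = 0.752). HAGH, the glyoxalase that follows it, fell with siMlx (-0.54, adjusted p = 1.24e-05) and was at 0.10 with siMondoA (adjusted p = 0.300). The mitochondrial glutathione carrier SLC25A40 fell with siMondoA (-1.003, adjusted p = 1.49e-06; -0.26 with siMlx, adjusted p = 0.0760), and SLC25A39 fell with siMlx (-0.46, adjusted p = 2.47e-07; -0.01 with siMondoA, adjusted p = 0.923). CHAC1, which degrades glutathione, rose with siMlx by 1.73 (adjusted p = 5.62e-07) from a low level, 2.21 ± 0.095 to 7.35 ± 2.4 CPM, and was at 0.42 with siMondoA (adjusted p = 0.126).

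DXR in siControl cells raised 14 and lowered 14 of these 38 genes (36.8% each, against 28.1% and 28.6% of all genes), with SLC3A2, the partner chain of SLC7A11, at 0.90 (adjusted p = 1.13e-09), the transferase GSTK1 at 0.78 (adjusted p = 1.29e-08) and GGT7 at 1.13 (adjusted p = 3.88e-08). Under DXR siMondoA raised 7 (18.4%, against 10.9% of all genes) and lowered 5 (13.2%, against 13.9%), and siMlx raised 4 (10.5%, against 14%) and lowered 8 (21.1%, against 16.2%). The aminopeptidase LAP3 rose with siMondoA (0.83, adjusted p = 0.000221) and fell with siMlx (-1.21, adjusted p = 3.78e-06). The aminopeptidase ANPEP fell with both (-0.74, adjusted p = 0.000525, and -0.54, adjusted p = 0.00514), as did SLC25A40 (-0.52, adjusted p = 0.00802, and -0.67, adjusted p = 0.000968).

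The last list held 26 tested genes of ferroptosis, haem breakdown and iron. In untreated cells siMondoA raised 3 (11.5%, against 23.3% of all genes) and lowered 9 (34.6%, against 23.3%), with a median of -0.10 against 0.02. There siMlx raised 6 (23.1%, against 24.9%) and lowered 10 (38.5%, against 23%), with a median of -0.06 against 0.02. IREB2, iron regulatory protein 2, went from 103 ± 3.3 to 28.8 ± 0.61 CPM with siMondoA (-1.84, SE 0.05, adjusted p = 7.93e-16) and to 59.9 ± 2.1 CPM with siMlx (-0.78, SE 0.05, adjusted p = 3.75e-11). The iron carrier SLC11A2 fell with siMondoA (-0.54, adjusted p = 2.67e-06) and was at -0.06 with siMlx (adjusted p = 0.516). The ferrireductase STEAP3 rose with siMlx (0.45, adjusted p = 1.46e-06) and fell with siMondoA (-0.15, adjusted p = 0.0300).

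DXR in siControl cells raised 6 of these 26 genes (23.1%, against 28.1% of all genes) and lowered 8 (30.8%, against 28.6%). SAT1, a polyamine acetyltransferase (2.19, adjusted p = 7.37e-11), and NCOA4, which delivers ferritin to lysosomes (0.34, adjusted p = 2.34e-05), rose, and the mitochondrial channel VDAC3 fell (-0.40, adjusted p = 1.68e-05). Under DXR, siMondoA raised 4 (15.4%, against 10.9% of all genes) and lowered 6 (23.1%, against 13.9%), and siMlx raised 4 (15.4%, against 14%) and lowered 5 (19.2%, against 16.2%). IREB2 fell with both there (-1.40, adjusted p = 8.60e-14, and -0.58, adjusted p = 1.22e-08). ACO1, iron regulatory protein 1, fell with siMondoA (-0.76, adjusted p = 0.000488) and rose with siMlx (0.77, adjusted p = 0.000252). Both were set against the same siControl DXR libraries, which were spread at 90.4 ± 26 CPM, while siMlx DXR libraries had 154 ± 20 CPM. SLC11A2 fell with siMondoA (-0.51, adjusted p = 2.42e-05) and was at -0.16 with siMlx (adjusted p = 0.0855).

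**Figure D5:**
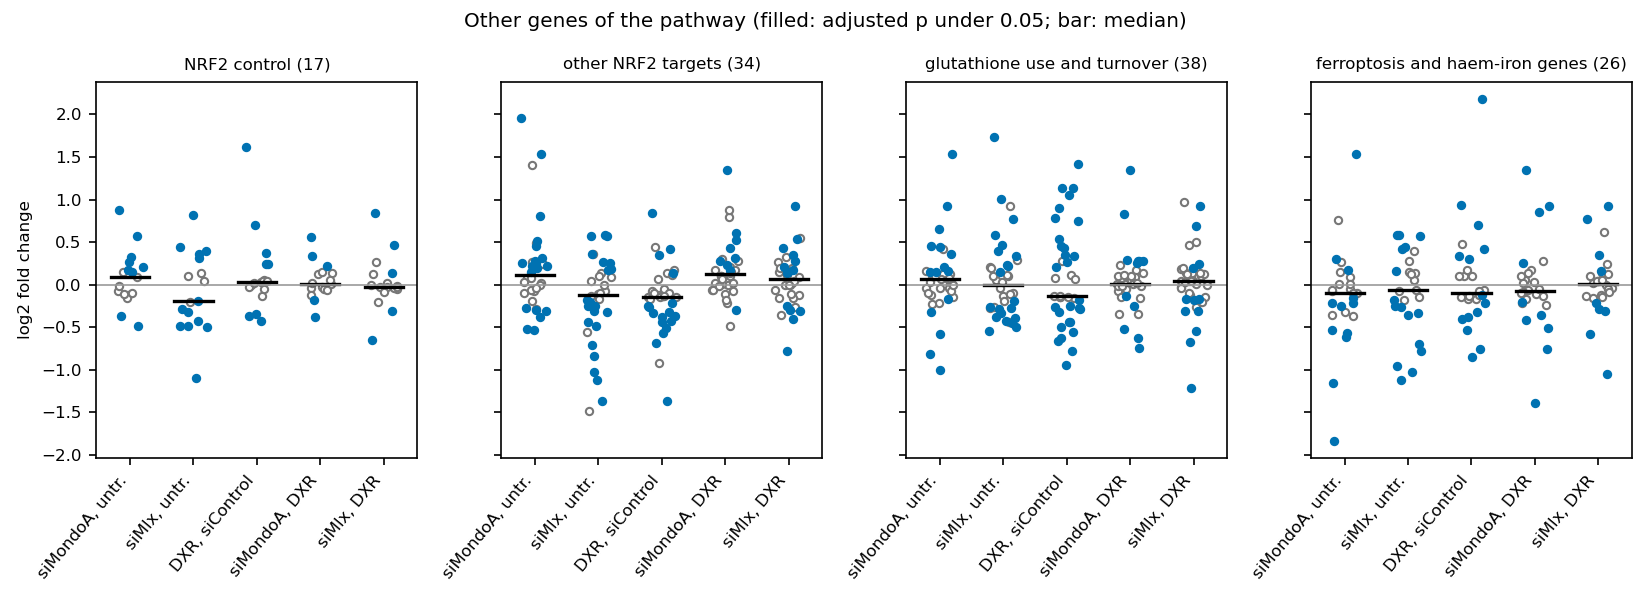
Fitted log2 fold change of each tested gene of 4 pathway lists in 5 comparisons; filled points passed an adjusted p under 0.05, bars are list medians, and numbers in brackets are genes tested. The medians lie close to 0, and those of NRF2 control and other NRF2 targets are at 0.09 and 0.11 for untreated siMondoA and at -0.19 and -0.12 for untreated siMlx.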

How the data were processed

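For 18 libraries of RPE-1 RNA the authors deposited gene-level read counts, and RPKM values made from the same reads by scaling to gene length and depth. Per the labels' protocols, libraries were made from total RNA with a stranded poly(A) kit. Per the submitters' processing notes, reads were aligned to GRCh38 with TopHat2 2.1.1. The sources used here do not give the counting program, annotation or strand setting. Groups and replicate numbers came from the labels.

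For the counts, edgeR 4.0.16 (R 4.3.3) was used. After filterByExpr and TMM scaling, a single model held the 18 libraries with 1 mean for each group (12 residual degrees of freedom). The quasi-likelihood test was two-sided, p-values were adjusted by Benjamini-Hochberg over 13676 genes, and the script was tested on simulated data. Levels are TMM-scaled CPM and likeness used log2 CPM with a prior count of 2. Positions are from GENCODE 29 and promoter windows from RefSeq.

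Alternatives tried were DESeq2 1.42.0, RLE and upper-quartile scaling, at least 1 CPM in 3 libraries, no low-count filter, only the groups compared, a replicate block, leaving out each library, and limma 3.58.1 on log2(RPKM + 0.1) and log2(RPKM + 1), for genes of at least 0.5 RPKM in 3 libraries. The alternatives were read out for the 10 genes and for counts of all genes, and not for single genes of the lists. The 10 genes and the lists were chosen with earlier results of these data known. Named were these genes, MLXIP, MLX, up to 3 genes with the smallest p from each of 4 pathway lists in each of 5 comparisons, and the 3 genes most like each of the 10.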

Additional observations from a re-analysis of the deposited data

Results flagged for a closer look

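The difference between the siMlx effect under DXR and in untreated cells passed edgeR's interaction test for 2 of the 10 genes. NQO1 had an interaction of 0.61 on the log2 scale, from a siMlx effect of -0.70 in untreated cells (390 ± 24 against 636 ± 8.4 CPM) to -0.09 under DXR (270 ± 20 against 288 ± 20 CPM). GSR had an interaction of 0.43, from -0.70 (54.0 ± 4.0 against 87.5 ± 6.3 CPM) to -0.27 (41.6 ± 0.56 against 50.1 ± 2.9 CPM). The direction was the same without each library in turn, and both calls held in each of the alternatives run.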

How the results depend on the processing

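Of 1770 fitted changes of the 10 genes under the alternatives, 1706 kept their side of the threshold, 46 lost the call and 18 gained one. The sign changed in 69, of which 0 had passed the test with or without the alternative. With a library left out, the genes called for siMondoA against siControl under DXR numbered 1 to 2 (2 with all libraries). The count of all genes with a siMondoA interaction was 918 to 1384 (1384 with all libraries, 918 without untreated siMondoA library 1; the cause was not tested). With no low-count filter, 4 of the 10 genes passed the siMlx interaction in place of 2, as GCLM and HMOX1 also passed (the cause was not tested). In the siMlx interaction, GCLM also passed in DESeq2 (adjusted p = 0.0387) and HMOX1 with only the groups compared (adjusted p = 0.0491). The RPKM values account for 16 of the 46 lost calls, and leaving out a library for 23. Over 45 pairs of libraries with the same number the correlation of deviations from group means was -0.10 to 0.33, and over 0.1 in 21. Such pairs had 0.17 to 0.28 within the DXR groups and 0.02 to 0.33 within the untreated groups. The negative values were all between an untreated and a DXR library. Pairs with different numbers ran from -0.26 to 0.16, and 14 of 18 libraries correlated best with their own number, a hint of pairing in the data. The labels do not say that a number marks a shared culture or day, so the block was kept as an alternative. With the replicate block, 6734 genes passed for siMondoA in untreated cells in place of 6375, and of the 10 genes 8 in place of 7 passed for DXR in siMondoA cells, 7 in place of 6 for siMondoA against siMlx under DXR, and 3 in place of 2 for the siMlx interaction. The other 8 comparisons kept their number. At 124 to 421 counts, HMOX1 had the widest intervals of the group.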
